A study of Mus musculus with 230 samples.

Results

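Axon guidance ligands and receptors are described here across injured and intact sensory neurons of the mouse dorsal root ganglion. The members are all genes of the deposited count table whose names mark them as semaphorins, plexins, neuropilins, Eph receptors, ephrins, Slits, Robos, netrins, netrin receptors, FLRT proteins, draxin, collapsin response mediator proteins or repulsive guidance molecules. This name rule took 85 of 53278 genes, and it used no measured value. Of the 85, 80 fall into 16 guidance classes. The other 5 were matched by spelling: Plxna4os1, Plxna4os2 and Plxna4os3, which are transcripts antisense to Plxna4, and Unc50 and Unc5cl, which share a prefix with the netrin receptors.

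The study collected neurons from C57BL/6 X CAST/Ei crosses, injured at the sciatic nerve or left intact, and made RNA libraries from few neurons together (low-input) and from single cells. The low-input libraries form 6 groups of 3: injured and intact neurons at 1, 8 and 12 months of age. The single cells form 4 groups, 1 month old (21 cells injured, 18 intact) and 1 year old (22 cells injured, 8 intact). Neurons were picked by hand from dissociated L4 and L5 ganglia, and full-length transcripts of the cytoplasm were amplified with SMART-seq2. The 12-month group is given as 1 year in part of the labels, and no label names a transgene or a drug. The number of animals, their sex, the number of neurons in a low-input library and the time from surgery to collection are not given in the sources used here. Nothing in the labels says that replicates came from separate animals, so p-values below measure the spread between libraries, which may be technical. In libraries of several neurons, fewer cells of a type and less RNA per cell cannot be told apart.

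Guidance ligands attract or repel growing axons by acting on receptors of the growth cone. Semaphorins signal through plexins, with neuropilins as co-receptors for the secreted class 3, and collapsin response mediator proteins relay part of that signal to microtubules. Ephrins are bound to the membrane and signal in both directions with Eph receptors, Slits act on Robos, netrins act on DCC and UNC5 receptors, and draxin binds netrin and DCC. FLRT proteins bind UNC5 receptors and latrophilins. Many of these genes guide sensory axons in the embryo, and some are known to be expressed again in the adult after a peripheral nerve is cut.

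The 18 low-input libraries held 7531967 to 19443627 counts outside the spike-ins. A single feature, CT010467.1, took 29.4% to 59.7% of these in injured and 40.4% to 93.8% in intact libraries, so its share moved with the condition. The intact replicate 2 at 12 months stood apart, with 770328 counts left outside that feature. All 5 markers of nerve injury listed for this check (Atf3, Sprr1a, Sox11, Gal and Ecel1) were called higher in injured neurons, with no overlap within any age. General neuronal markers (8 genes) summed to 5230 to 9600 CPM in every library, with Tubb3 called higher (0.99), Rbfox3 called lower (-1.16, but 2.02 with scaling to the spike-ins) and the other 6 between -0.28 and -0.07. Of the markers of neuron types, 0 were called. Those of non-peptidergic neurons had a median of -0.87, with 1 of 6 above 0. Peptidergic markers had a median of 0.485, with 4 of 5 above 0, and markers of Th neurons one of 0.021, with 2 of 3 above 0. Markers of neurofilament neurons had a median of -0.21, with 2 of 7 above 0. Their sum went the other way, with a median of 3260 CPM after injury, against 2640 CPM without it. Their highest sum after injury was 3960 CPM. Without injury the highest was 17400 CPM, reached at 12 months, while at 1 and 8 months it was 4350 and 2640 CPM. The part of neuron types in the results below was not tested. CPM are counts scaled to a common library size by TMM, a method that centres the libraries on the typical gene.

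The first question was which guidance genes differ between injured and intact neurons when the 3 ages are averaged. Guidance genes that differed were all higher in injured neurons: Draxin, Sema4a, Sema6a, Sema4f, Slit1 and Ntn1 among the ligands, Epha3 and Ephb2 among the receptors, Flrt2 and Flrt3, and the cytoplasmic Dpysl5. Of the 85 members, 67 passed the filter on low counts and were tested. That filter asked for enough counts in any 3 libraries, so a gene could pass through injured libraries alone. Draxin, Sema4a and Ntn1, with 32, 10 and 2 counts over the 9 intact libraries, passed that way and could not have been called lower. Their direction is therefore no separate result, and without the filter some members were called lower. With edgeR's quasi-likelihood test, Benjamini-Hochberg adjustment over all 14212 genes and a threshold of 0.05, 11 of the 67 were called higher and 0 lower. Over all genes tested 5.11% were called higher and 1.07% lower (6.18% in either direction). At an unadjusted p below 0.05 there were 19 members, and DESeq2 and limma-voom called 14 and 12. The median log2 change of the 67 was 0.286 and 48 were above 0, while the median over all genes was 0.033. In 5 members (Draxin, Flrt3, Sema3c, Sema4a and Sema6a) every injured library lay above every intact library of the same age, a pattern of 1.83% of all genes tested.

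**Figure D1:**
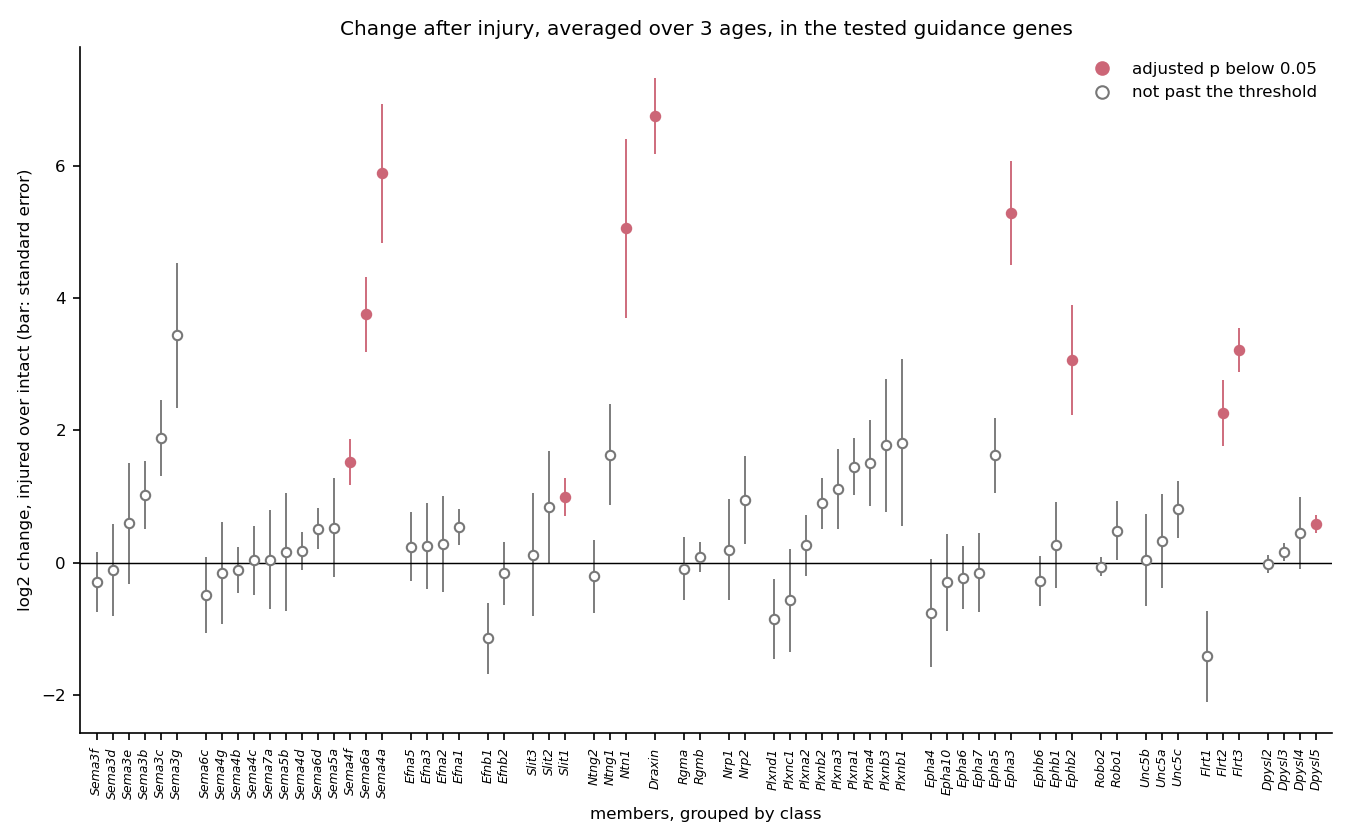
Log2 change of injured over intact neurons, averaged over 3 ages, for the 65 tested genes of the guidance classes, grouped by class from ligands on the left to receptors and cytoplasmic proteins on the right. Bars are standard errors and filled points passed the adjusted threshold of 0.05 in edgeR. The filled points are 11 and all lie above 0, with Draxin highest at 6.74, whereas open points lie on both sides of 0 under TMM scaling.

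These counts moved with some choices. With the share of CT010467.1 as a covariate 0 members and 11 genes were called, while the log2 values stayed above 0, for example 5.85 for Draxin (edgeR adjusted p = 0.0517), 2.58 for Flrt3 (0.191), 4.43 for Sema6a (0.197) and 3.02 for Sema4a (0.490). A block for the replicate number left 5 calls (Draxin, Epha3, Flrt2, Flrt3 and Sema6a). Scaling to the ERCC spike-ins moved the median of all genes to 2.90 and that of the members to 3.29, and all 67 members were then called higher. Left out in turn, the first injured library at 1 month and the second injured library at 12 months each left 7 calls. All 11 called genes kept a value above 0 in 25 of 25 alternatives. Draxin, Epha3, Flrt2, Flrt3 and Sema6a lost their call in 1 of the 25 (the covariate), and Sema4a and Sema4f in 2 (the covariate and the block). Dpysl5 lost it in 5, Ephb2 in 12, Slit1 in 15 and Ntn1 in 17.

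Because Draxin, Epha3 and Flrt3 were called higher at more than 1 age, the 250 bases before their start sites are shown, from the RefSeq promoter table (GRCm38.p6), read 5′ to 3′ on the minus strand, with each CG dinucleotide in capitals. They lie at chr4:148130699-148130948 for Draxin, chr16:63864176-63864425 for Epha3 and chr2:140671477-140671726 for Flrt3.
Draxin: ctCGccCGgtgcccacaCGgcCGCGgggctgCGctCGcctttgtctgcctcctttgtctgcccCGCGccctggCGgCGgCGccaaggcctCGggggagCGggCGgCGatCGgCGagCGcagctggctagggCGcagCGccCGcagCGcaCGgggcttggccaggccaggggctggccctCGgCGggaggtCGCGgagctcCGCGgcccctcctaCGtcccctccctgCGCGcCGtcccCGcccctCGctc
Epha3: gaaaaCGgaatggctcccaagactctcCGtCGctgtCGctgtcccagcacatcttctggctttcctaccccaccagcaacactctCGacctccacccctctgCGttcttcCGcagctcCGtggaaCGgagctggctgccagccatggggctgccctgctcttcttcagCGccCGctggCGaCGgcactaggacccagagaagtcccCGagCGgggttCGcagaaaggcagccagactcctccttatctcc
Flrt3: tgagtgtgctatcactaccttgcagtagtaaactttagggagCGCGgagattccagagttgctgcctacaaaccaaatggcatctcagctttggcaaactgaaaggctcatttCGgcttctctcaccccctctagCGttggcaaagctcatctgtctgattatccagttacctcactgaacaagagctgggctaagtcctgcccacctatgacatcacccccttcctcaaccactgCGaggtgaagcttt
Draxin's stretch is 79.6% G or C and holds 36 CG dinucleotides, as many as or more than 97.8% of the 32544 promoters in the table. The Epha3 stretch holds 16 and that of Flrt3 holds 5, where the median of all promoters is 6. The promoters of the genes that were called together thus differed in CG content from near the median to near the top. Of the 85 members 67 had a promoter in the table, and of the 11 called genes 8 did. Their windows, of 250 bases before to 50 after the start, were searched on both strands for the AP-1 letters TGACTCA or TGAGTCA, the site of the Jun and ATF3 families, and for the CRE letters TGACGTCA. AP-1 letters were in 5.19% of all promoters, in 2 of the 85 members' promoters (Sema4c and Sema6b), and in 0 of the 11 promoters of called genes. CRE letters were in 1.80% of all promoters and in 1 of the 85 (Epha2), and in 0 of the 11. A missing match says only that these letters are not in this window.

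Among the ligands, Draxin had the largest fitted log2 change. Draxin is a secreted repellent that binds netrin and DCC (chromosome 4, 148098437 to 148130698, GRCm38). In injured libraries its lowest, median and highest values were 3.14, 6.78 and 11.7 CPM, and in intact libraries 0, 0 and 0.9 CPM. The lowest injured library was thus above the highest intact one, and 5 of 9 intact libraries held no count. The averaged log2 change was 6.74 ± 0.58 (SE; edgeR adjusted p = 8.14e-06). Counts over all libraries were 1001 in injured and 32 in intact neurons. The fitted fold of genes this low in intact neurons depends on edgeR's prior count.

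Membrane-bound semaphorins gave 3 of the 12 tested genes of their class as higher, and 0 as lower. Sema4a, a transmembrane semaphorin known from immune cells and the retina, ran from 0.0925 through a median of 1.5 to 3.15 CPM in injured libraries, and 7 of 9 intact libraries held no count, with a highest value of 0.308. Groups did not overlap within an age, though the level was near 1 CPM, and the log2 change was 5.88 ± 1.04 (edgeR adjusted p = 0.00465). Sema6a, a transmembrane ligand of plexin A2 and A4, ran from 29.4 through 90.7 to 147 CPM in injured and from 0.432 through 4.45 to 27.1 CPM in intact libraries. Every injured library lay above every intact one, and the change was 3.75 ± 0.57 (edgeR adjusted p = 0.000873). Sema4f, which is known from neurons and from Schwann cells, where it acts in contact with axons, ran from 41.9 through 89.1 to 110 CPM in injured and from 8.13 through 25.3 to 96.2 CPM in intact libraries. Its groups overlapped at 8 months, where intact replicates 1 and 2 were above injured replicate 1, and at no other age (log2 change 1.52 ± 0.35, edgeR adjusted p = 0.0136). The other 9 tested members of the class ran from -0.49 (Sema6c) to 0.53 (Sema5a). Sema4b, Sema4d, Sema6d and Sema7a, with medians of 16 to 29.3 CPM in intact libraries, were among those not past the threshold.

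No class 3 semaphorin passed the threshold, although 1 of the 6 tested had groups that did not overlap within any age. Sema3c, a secreted semaphorin that binds neuropilins, ran from 17.5 through 19 to 29.7 CPM in injured and from 0 through 6.16 to 13.8 CPM in intact libraries. All 9 injured libraries were above all 9 intact ones, with a log2 value of 1.89 ± 0.57 (edgeR adjusted p = 0.0624). Sema3g, best known from blood vessels, had a value of 3.44 ± 1.10 (adjusted p = 0.0781) at 149 counts in injured and 26 in intact libraries. Sema3a, the founding repellent of sensory axons, was not tested, with 6 counts in injured and 0 in intact libraries. The remaining 4 (Sema3b, Sema3d, Sema3e and Sema3f) ran from -0.29 to 1.02.

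Slit1 and Ntn1 were the secreted ligands with the least stable calls. Slit1, a ligand of Robo receptors, ran from 73.3 through 99.3 to 156 CPM in injured and from 4.56 through 54.7 to 168 CPM in intact libraries. The groups overlapped at 1 and 8 months, where 1 and 2 intact libraries respectively lay among or above the injured ones, and not at 12 months (log2 change 0.99 ± 0.28, edgeR adjusted p = 0.0470). Slit2 and Slit3 had values of 0.84 and 0.13. Ntn1, netrin-1, was near the detection limit, at 0 to 1.57 CPM in injured and 0 to 0.115 CPM in intact libraries. It summed to 74 counts in injured and 2 in intact libraries, a ratio of 30.7 (exact 95% interval 8.21 to 258, counting error only), and 2 injured libraries held none (log2 change 5.05 ± 1.35, edgeR adjusted p = 0.0435). The netrin-G genes, which code for GPI-anchored relatives of netrin, were not called: Ntng1 had a value of 1.63 ± 0.76 and Ntng2 one of -0.20 ± 0.55.

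Ephrins and repulsive guidance molecules gave no call. All 4 tested ephrin-A genes had values of 0.24 to 0.55, and Efna1, the class member with the highest level per length, ran from 12.8 through 18.4 to 40.2 CPM in injured and from 0 through 15.6 to 30.6 CPM in intact libraries. Efnb1 had a value of -1.14 ± 0.53 (edgeR adjusted p = 0.239), which turned to 1.91 with scaling to the spike-ins, and Efnb2 one of -0.16 ± 0.47. Rgmb, a co-receptor for bone morphogenetic proteins, had a value of 0.09 ± 0.23. It ran from 62.1 through 77.2 to 94.5 CPM in injured and from 32.8 through 60.7 to 183 CPM in intact libraries.

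Among the receptors, Epha3 and Ephb2 were called higher. Epha3 is a receptor for A-type ephrins (chromosome 16, 63543538 to 63864158, GRCm38). It ran from 0.897 through 2.76 to 4.37 CPM in injured libraries, while 5 of 9 intact libraries held no count and the highest held 1.03 CPM. The groups overlapped at 1 month only, where 2 intact libraries reached the lowest injured one (log2 change 5.28 ± 0.78, edgeR adjusted p = 0.000868). Ephb2, a receptor for B-type ephrins, ran from 0.707 through 2.11 to 18.6 CPM in injured and from 0 through 0.171 to 3.37 CPM in intact libraries. Its highest value came from injured replicate 1 at 8 months, and the groups overlapped at 1 and 8 months (log2 change 3.07 ± 0.83, edgeR adjusted p = 0.0365). Epha5 had a value of 1.62 ± 0.56 that missed the threshold (adjusted p = 0.0983), and Epha4, Epha6, Epha7, Epha10, Ephb1 and Ephb6 ran from -0.76 to 0.27.

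No plexin, neuropilin, Robo or netrin receptor was called in the averaged contrast. Plxna1, a receptor of class 3 and class 6 semaphorins, came nearest among the 9 plexins, at 4.63, 21.8 and 29.8 CPM (lowest, median, highest) in injured and 0.927, 5.32 and 37.9 CPM in intact libraries (log2 value 1.45 ± 0.43, edgeR adjusted p = 0.0535). Plxna4 and Plxnb2 had values of 1.51 and 0.90, and 7 of the 9 were above 0. Reads of Plxna4 and of its antisense transcripts cannot be told apart, because counting ignored strand. Plxnc1, the receptor of Sema7a and a marker of non-peptidergic neurons, ran from 0.618 to 302 CPM over the intact libraries, so its value of -0.57 ± 0.78 carried a wide error. Nrp2 ran from 0.821 to 335 CPM in intact libraries (0.95 ± 0.67). Robo2 differed little, at 44.3, 66.4 and 98.5 CPM in injured and 37.6, 64.9 and 159 CPM in intact libraries (-0.06 ± 0.15). Unc5a, Unc5b and Unc5c had values of 0.33, 0.04 and 0.81.

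FLRT genes split. Flrt3 and Flrt2 were called higher and Flrt1 was not called, with a value on the other side of 0. Flrt3, a membrane protein that binds UNC5 receptors and latrophilins (chromosome 2, 140650914 to 140671469, GRCm38), ran from 41.8 through 109 to 176 CPM in injured and from 2.17 through 11.1 to 19.96 CPM in intact libraries. The lowest injured library held more than the highest intact one, and the log2 change was 3.21 ± 0.34 (edgeR adjusted p = 2.8e-05). Flrt2, its relative, ran from 10.9 through 22.3 to 30 CPM in injured and from 0 through 4.51 to 13.1 CPM in intact libraries. Its groups overlapped at 8 months through 1 intact library (log2 change 2.26 ± 0.50, edgeR adjusted p = 0.0106). Flrt1 ran from 0.463 through 2.74 to 5 CPM in injured and from 0.164 through 6.59 to 19.7 CPM in intact libraries (-1.41 ± 0.68, edgeR adjusted p = 0.257), and turned to 1.93 with scaling to the spike-ins. Summed over the class, FLRT genes reached 130 ± 49.4 CPM (SD, n = 9) after injury, against 23.2 ± 5.17 CPM (SD, n = 9) without it.

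Collapsin response mediator proteins, which bind tubulin and relay semaphorin signals, differed in level, with 3 of the 4 above 27 CPM in every library. Dpysl5 (CRMP5) ran from 62 through 90.1 to 107 CPM in injured and from 27.1 through 53.5 to 96.0 CPM in intact libraries, with overlap within an age at 1 month only, through intact replicate 3 (log2 change 0.59 ± 0.14, edgeR adjusted p = 0.0177). Dpysl2 (CRMP2), at a median of 311 CPM in injured libraries and 340 CPM in intact ones, had a value of -0.02 ± 0.14, and Dpysl3 (CRMP4) one of 0.17 ± 0.14, neither past the threshold. Dpysl4, the lowest of the class, ran from 4.16 through 6.35 to 8.92 CPM after injury and from 0 through 3.93 to 21.1 CPM without it (0.45 ± 0.54, edgeR adjusted p = 0.701).

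**Figure D2:**
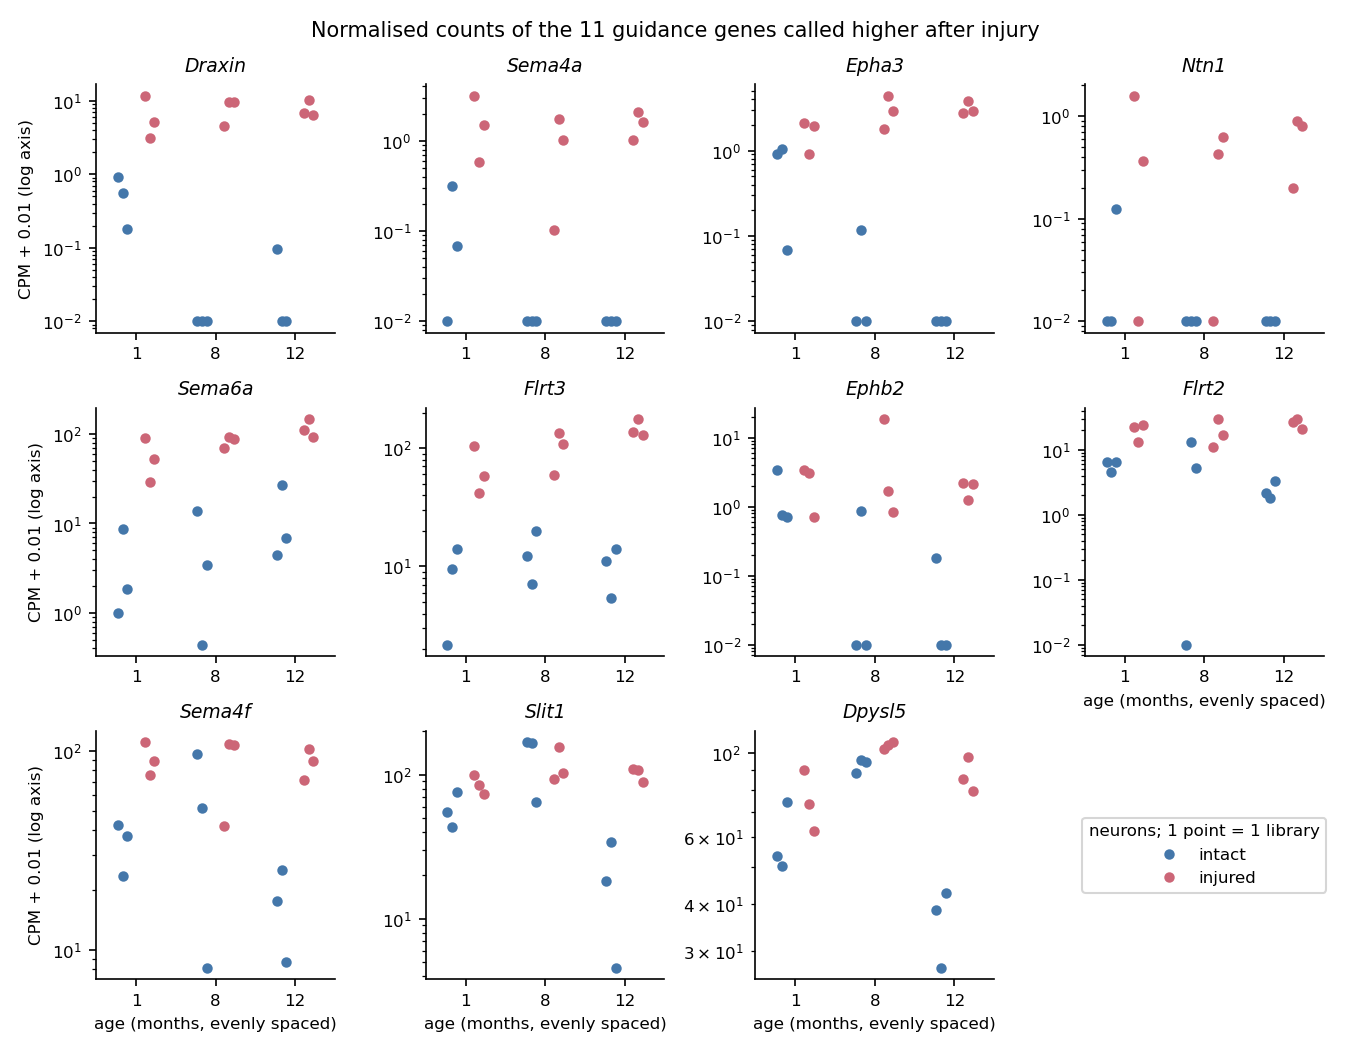
CPM plus 0.01 on a log axis, 1 point per low-input library, for the 11 genes called higher after injury in the averaged contrast, at each age in intact (blue) and injured (red) neurons. Points at 0.01 are libraries with no count. For Draxin, Sema4a, Sema6a and Flrt3 no point of one colour overlaps with the other within an age, and for Slit1 the colours part at 12 months only.

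Markers of other cells moved with the condition in part. The 8 satellite glia markers all had values above 0 and 0 were called. They summed to 134 to 2050 CPM in injured and 53.9 to 762 CPM in intact libraries (medians 709 and 157), mostly through Apoe, and Cdh19 was at 0 in the median intact library. Of 9 fibroblast and endothelial markers, 4 were tested and Col1a2 was called higher (3.93, adjusted p = 0.0254); the sums were 19.6 to 62.6 CPM in injured and 0 to 79.5 CPM in intact libraries. Schwann cell markers summed to 567 to 726 CPM in injured libraries and 585 to 2070 CPM in intact ones. The 8 immune markers had a median sum of 2.65 CPM after injury, against 0.98 CPM without it. Their highest sum was 9.51 CPM after injury, and 32.5 CPM without it, reached at 12 months. Of the 8, 5 stayed under 1 CPM in all 18 libraries. The part of these cells, and of CT010467.1, in the changes above was not tested.

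The study sampled 3 ages, so the injury contrast was also made within each. Draxin and Flrt3 were called higher at all 3 ages, and Epha3 at 8 and 12 months. At 12 months Dpysl5, Slit1, Sema4f and Epha5 were called as well. No member was called lower at any age, where 0, 6 and 114 of all 14212 genes were at 1, 8 and 12 months.

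At 1 month, 2 members were called, against 0.232% of all genes. Flrt3 stood at 103, 41.8 and 57.9 CPM in the 3 injured and at 2.17, 9.43 and 14.1 CPM in the 3 intact libraries (log2 change 2.97 ± 0.57, edgeR adjusted p = 0.0382). Draxin stood at 11.7, 3.14 and 5.12 CPM in injured and at 0.9, 0.547 and 0.173 CPM in intact libraries (3.62 ± 0.70, adjusted p = 0.0467). Neither gene's groups overlapped. Same-numbered libraries correlated at 0.196, 0.218 and 0.439 at this age, which leaves their pairing uncertain. With the number as a block in edgeR both calls were lost (Flrt3 3.10, adjusted p = 0.432, and Draxin 3.59, adjusted p = 0.381). Left out in turn, 12 of the 18 libraries left 0 calls: all 3 intact and the first and last injured at 1 month, the second and last injured at 8 months, and the first and second intact and all 3 injured at 12 months. The second injured library at 1 month left 1. Both calls were also lost with the covariate, with scaling to the spike-ins and when the 6 libraries of this age were fitted alone.

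At 8 months, 3 members were called, all higher, where 0.915% of all genes were called higher. Draxin stood at 4.53, 9.72 and 9.49 CPM in injured libraries and had 0 counts in all 3 intact ones, which is at least 85.4-fold higher with the floor for a count of 0 set at 3 counts in the group (edgeR adjusted p = 0.00105). Epha3 stood at 1.76, 4.37 and 2.94 CPM in injured and at 0, 0.108 and 0 CPM in intact libraries (adjusted p = 0.0301). Its 125 counts against 1 give a ratio of 97.6, with an exact 95% interval of 17.2 to 3890. Flrt3 stood at 59.5, 133 and 109 CPM in injured and at 12.3, 7.14 and 19.96 CPM in intact libraries (2.93 ± 0.57, adjusted p = 0.0226). Without the second or last injured or the second intact library at this age 1 member was called, and without the first injured library 5. All 3 calls were lost with the covariate and when the libraries of this age were fitted alone, and DESeq2 called 11 members.

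At 12 months, 7 members were called, all higher, where 2.19% of all genes were called higher. Flrt3 stood at 138, 176 and 128 CPM in injured and at 11.1, 5.42 and 14.1 CPM in intact libraries (log2 change 3.74 ± 0.61, edgeR adjusted p = 0.00394). Draxin stood at 6.78, 10.3 and 6.49 CPM in injured and at 0.0856, 0 and 0 CPM in intact libraries, 373 counts against 1 (ratio 134, exact interval 24 to 5320). Epha3 had 148 counts in injured and 0 in intact libraries, at least 17.8-fold higher (adjusted p = 0.0242). Draxin and Epha3 thus each held at most 1 count over the intact libraries of this age, while Flrt3 was detected in all 3. Slit1 stood at 109, 108 and 88.8 CPM in injured and at 18.2, 34.3 and 4.56 CPM in intact libraries (2.58 ± 0.53, adjusted p = 0.0173). Dpysl5 stood at 85.1, 97.7 and 79.4 CPM in injured and at 38.6, 27.1 and 42.6 CPM in intact libraries (1.25 ± 0.25, adjusted p = 0.0149). Sema4f (2.44 ± 0.64, adjusted p = 0.0493) and Epha5 (4.59 ± 1.20, adjusted p = 0.0463) were close to the threshold, and each was lost in 19 of 26 alternatives. All 7 had groups that did not overlap at this age, but the share of all genes with this pattern was not counted for a single age. Nothing is read from it. The median of the 67 members was 0.653, or 0.642 with genes at 0 in a group set at their bound. Without the first or second injured library of this age 2 members were called, without the last injured or the first or last intact library 4, and without the first intact library at 8 months 10. The covariate left 0 calls, a fit of the libraries of this age alone called 3, and DESeq2 called 14 members.

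**Figure D3:**
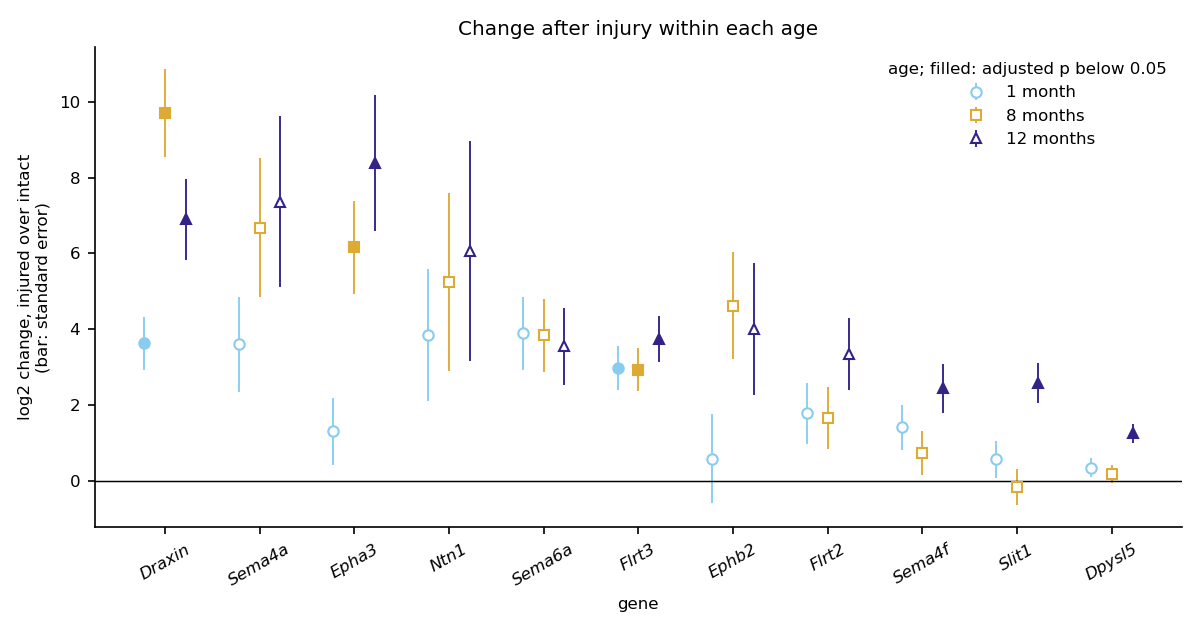
Log2 change of injured over intact neurons within each age for the 11 genes called in the averaged contrast, with standard errors, filled where edgeR's adjusted p is below 0.05. Draxin and Flrt3 are filled at all 3 ages and Epha3 at 2 of them. Slit1 lies at -0.17 at 8 months and at 2.58 at 12 months, with overlapping libraries at the first.

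Whether the injury effect itself differed between ages was tested as an interaction. No member was called, and 0.0% of all genes were. With edgeR 16 members had an unadjusted p below 0.05, and DESeq2 and limma-voom called 2 and 0. Draxin (unadjusted p = 0.00181, adjusted p = 0.321) and Epha3 (0.00351, adjusted p = 0.345) were among them. A call at one age and not at another is therefore no sign of a difference between the ages.

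Age within a condition was compared with a joint test over the 3 ages. In intact neurons 6 members differed between ages (Dpysl3, Dpysl5, Draxin, Ntng1, Robo2 and Slit1), against 4.17% of all genes. Of these, 4 shared an order, highest at 8 months and lowest at 12. Robo2, the main Slit receptor of these neurons by level, stood at 64.9, 57 and 71.5 CPM at 1 month, 159, 114 and 112 CPM at 8 months, and 46.7, 47 and 37.6 CPM at 12 months (edgeR adjusted p = 0.00918). Its 3 ages did not overlap. Slit1 stood at 54.7, 43.5 and 76.1 CPM at 1 month, 168, 165 and 64.5 CPM at 8 months, and 18.2, 34.3 and 4.56 CPM at 12 months (adjusted p = 0.0166), with overlap between the first and second of these ages.

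Both CRMP genes followed the same order. Dpysl5 stood at 53.5, 50.2 and 74.1 CPM at 1 month, 88.7, 96.0 and 94.7 CPM at 8 months, and 38.6, 27.1 and 42.6 CPM at 12 months (edgeR adjusted p = 0.0184). Dpysl3 stood at 266, 195 and 232 CPM, at 353, 307 and 248 CPM and at 151, 134 and 110 CPM in the same order (adjusted p = 0.0261), with overlap between 1 and 8 months. Ntng1 went the other way at 8 months, with 0, 0 and 0.246 CPM against 4.35, 51.5 and 20.9 CPM at 1 month and 26.7, 56 and 7.82 CPM at 12 months (adjusted p = 0.0288). Draxin was above 0 mainly at 1 month (adjusted p = 0.0292).

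In injured neurons no member was called for age, against 0.218% of all genes, and 2 had an unadjusted p below 0.05 (edgeR; DESeq2 and limma-voom called 0 each). The age calls in intact neurons did not stand when the 9 intact libraries were fitted alone (0 members and 5 genes called), and DESeq2 called 21 members. Left out in turn, 8-month intact replicate 1 left 4 members called, 8-month intact replicate 3 left 11 and 12-month intact replicate 2 left 12. The share of CT010467.1 in intact libraries also moved with age, from 40.4% to 45.3% at 1 month through 65.7% to 68.2% at 8 months to 64.2% to 93.8% at 12 months. Its part in the age differences was not tested.

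**Figure D4:**
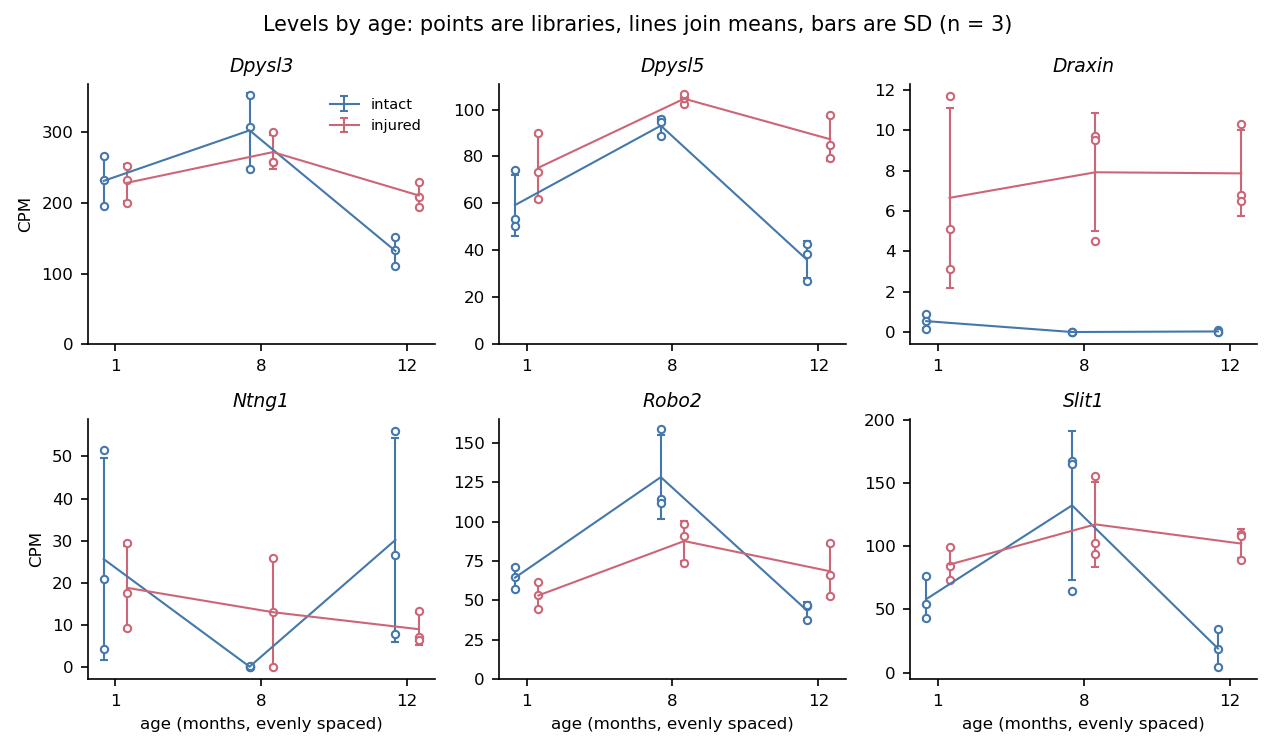
CPM by age in intact (blue) and injured (red) neurons for the 6 members called for age in intact neurons. Open points are libraries, lines join the means and bars are SD (n = 3). Robo2, Slit1, Dpysl3 and Dpysl5 are highest at 8 months and lowest at 12 months in intact neurons, and Ntng1 is near 0 at 8 months.

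Levels can be set side by side between genes only per length, as mean CPM per kb of exon over the 18 libraries. On that scale Dpysl2 stood highest (76.4), followed by Dpysl3 (36.6) and Rgmb (29.8). Slit1 (14.5), Flrt3 (11.9), Sema4f (11.6), Dpysl5 (10.3) and Efna1 (9.91) were also above 9, as was Unc50 (13.8), which is matched by name only. Plxnc1 stood at 7.55, Ntng2 at 6.88, Sema7a at 6.75 and Plxna4 at 6.50. Among other members Sema6a stood at 5.33, Robo2 at 4.5, Sema3c at 1.94, Flrt2 at 1.71 and Draxin at 0.737. Epha3 (0.251), Ephb2 (0.174), Sema4a (0.135) and Ntn1 (0.0437) were called at levels far below those of the leading genes. In all, 33 tested members were above 1 on this scale, and 25 of the 85 had a count in every low-input library.

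The single cells were read as a separate set, since each holds the cytoplasm of 1 neuron. No test between groups was made, because the labels name no animal and each group counts as 1 sample. In pooled counts Flrt3, Sema6a and Sema4a were more than 2-fold higher in injured cells at both ages, Sema4a mostly through 1 cell at each age. Flrt2 was so at 1 month. The pooled level of Epha3 was lower at 1 month, but it rested mostly on 1 cell in each group and no direction is read from it. Values are pooled CPM without CT010467.1, with exact 95% Poisson intervals that cover counting error only. The groups differed in depth, with medians of 1034000 and 291800 counts outside that feature in injured and intact cells at 1 month and 3524000 and 7145000 at 1 year, and 1 injured cell at 1 year held no counts.

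Flrt3 stood at 220 CPM (216 to 224) in injured and 21.3 CPM (19.9 to 22.9) in intact cells at 1 month. At 1 year it stood at 104 CPM (101 to 106) and 18.7 CPM (17.6 to 19.8). It was detected in 16 of 21 injured cells (76.2%, exact Clopper-Pearson 95% interval 52.8 to 91.8) and 9 of 18 intact cells (50%, 26 to 74) at 1 month. After each cell of at least 100000 counts was thinned to that number, 13 of 17 injured and 2 of 12 intact cells had a count at 1 month, and 13 of 18 and 4 of 8 at 1 year. Sema6a stood at 182 CPM (178 to 186) in injured and 15.6 CPM (14.3 to 16.9) in intact cells at 1 month, and at 44.4 CPM (43.1 to 45.8) and 9.42 CPM (8.63 to 10.3) at 1 year. Thinned, 9 of 17 injured and 5 of 12 intact cells had a Sema6a count at 1 month, and 10 of 18 and 4 of 8 at 1 year, so the share of cells differed less than the level. Single cells weighed on both, with 1 injured cell holding 38.7% of the injured Sema6a counts at 1 month and 31.4% of those of Flrt3.

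Other called genes rested on few cells. Sema4a stood at 4.62 CPM (4.05 to 5.25) in injured and 0.330 CPM (0.171 to 0.577) in intact cells at 1 month, but 88.7% of the injured counts came from 1 cell. At 1 year it stood at 5.70 CPM (5.23 to 6.21) and 1.99 CPM (1.64 to 2.39), with 63.4% of the injured counts from 1 cell and a count in 7 of 21 injured and 6 of 8 intact cells. Draxin stood at 12.5 CPM (11.5 to 13.5) and 6.66 CPM (5.85 to 7.55) at 1 month and at 1.16 CPM (0.953 to 1.40) and 2.97 CPM (2.53 to 3.45) at 1 year, injured before intact. Intact single cells thus held Draxin counts, whereas intact low-input libraries held 0 or few. Epha3 stood at 4.54 CPM (3.98 to 5.16) in injured and 13.2 CPM (12.0 to 14.4) in intact cells at 1 month, and at 2.16 CPM (1.87 to 2.48) and 2.03 CPM (1.67 to 2.43) at 1 year. At 1 month 1 cell held 72.3% of the injured and 1 cell 64.2% of the intact Epha3 counts, and after thinning 4 of 17 injured and 2 of 12 intact cells had a count, so no direction is read from the pooled level. Flrt2 had a log2 ratio (pseudocount 1 CPM) of 1.80 at 1 month and 0.06 at 1 year. Sema4f (0.21 and -0.64), Slit1 (0.47 and 0.17) and Dpysl5 (-0.01 and -0.27) stayed within 2-fold at both ages. Ephb2 (-0.72 and -0.91) and Ntn1 (0.68 and 0.62) did so with the pseudocount, which weighs on levels this low. Ephb2 pooled to 1.48 CPM in injured and 3.66 CPM in intact cells at 1 year. Ntn1 pooled to 0.76 and 0.14 CPM at 1 year. At 1 month its 31 injured counts came from 1 cell, and intact cells held 0. For these genes no lack of a difference is read.

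More members were past 2-fold lower than higher in injured cells at both ages. At 1 month 72 members had at least 20 counts, and 10 were more than 2-fold higher and 19 lower, where all genes gave 8.20% and 12.0%. At 1 year it was 10 higher and 13 lower of 82, where all genes gave 11.8% and 7.64%. The members' median log2 ratio was -0.37 at 1 month and -0.03 at 1 year (all genes -0.05 and 0.09). With a pseudocount of 5 CPM 18 and 11 members remained past 2-fold. Dcc, Epha10, Ephb1, Sema3f, Sema7a, Slit2 and Unc5a (7 members) were lower at both ages, and Efna2, Plxnb1 and Plxnb3 were lower at 1 month and higher at 1 year. These 3 rested on single cells. At 1 month 1 cell held 89.6% (Efna2) and all (Plxnb3) of the intact counts, and at 1 year 1 cell held 83.8% of the injured Plxnb1 counts. Among the 7, 1 cell held 80.1% (Dcc), 77.7% (Epha10), 69.2% (Ephb1) and 78.4% (Unc5a) of the intact counts at 1 month. Dcc had a count in 2 intact cells at each age. The share of all genes past 2-fold lower at both ages was not counted. Sema7a, a GPI-anchored semaphorin, stood at 7.56 and 79.7 CPM in injured and intact cells at 1 month and at 52.1 and 156 CPM at 1 year, and its low-input value was 0.05 ± 0.75. Of its counts at 1 month 1 cell held 64.2% in injured and 67.8% in intact cells (56.6% and 60.4% at 1 year), and 12 of 21 injured and 8 of 18 intact cells had a count at 1 month. Slit2 stood at 3.94 and 53 CPM at 1 month, with 86% of the intact counts from 1 cell.

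**Figure D5:**
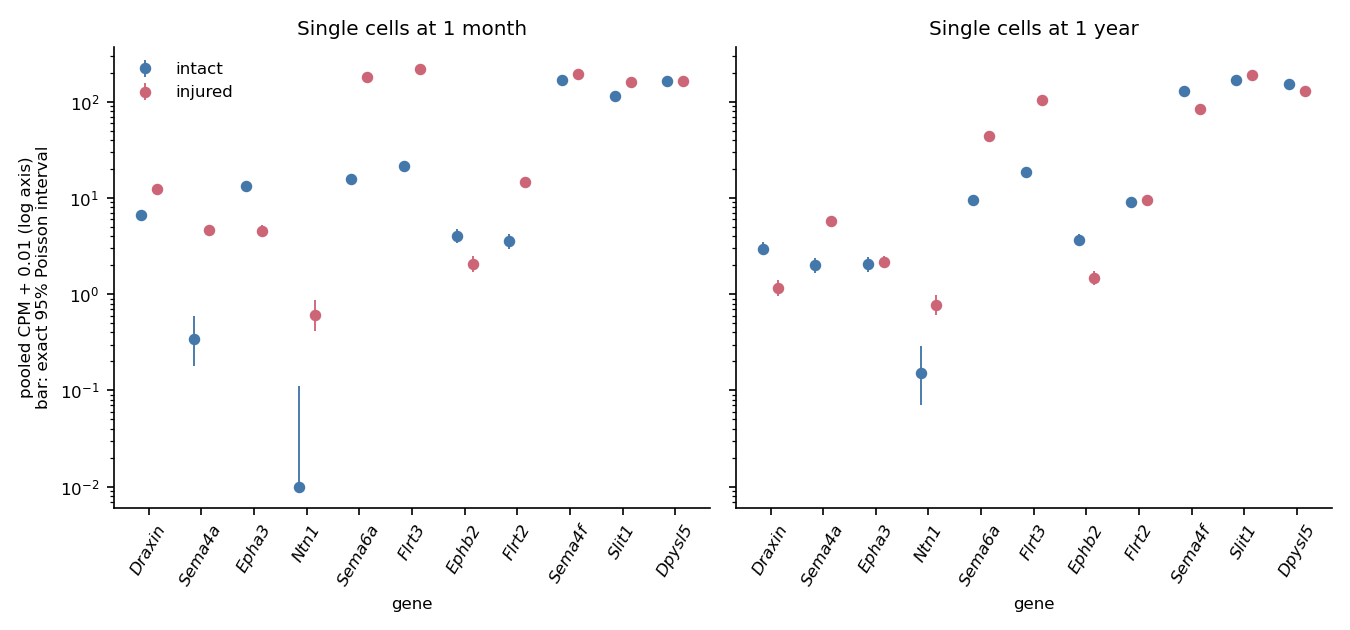
Pooled CPM plus 0.01 on a log axis in intact (blue) and injured (red) single cells at 1 month (left) and 1 year (right) for the 11 genes called in the low-input libraries, with exact 95% Poisson intervals that cover counting error only. Flrt3, Sema6a and Sema4a are more than 2-fold higher in injured cells at both ages, Sema4a mostly through 1 cell at each age. The pooled Epha3 level is lower in injured cells at 1 month, but it rests mostly on 1 cell in each group and no direction is read from it.

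Other genes of the guidance pathways, from a list of 68 co-receptors, other ligand-binding proteins and cytoplasmic effectors, gave few calls. Of the 66 tested, 5 were called higher and 2 lower in the averaged contrast, where all genes gave 5.11% and 1.07%, and the median was 0.145. Higher were Crmp1 (0.62 ± 0.16), the fifth collapsin response mediator; Rnd1 (3.27 ± 0.61), a GTPase that binds plexins; Nck2 (3.90 ± 1.01), an adaptor downstream of Eph receptors and DCC; Rtn4 (0.79 ± 0.17), the gene of Nogo; and Limk2 (0.69 ± 0.18), a kinase of cofilin. Lower were Limk1 (-0.76 ± 0.16), its paralog, and Vasp (-0.66 ± 0.19), an actin regulator, and both turned positive with scaling to the spike-ins (2.18 and 2.30). Rnd1 ran from 2.13 through 8.92 to 24.2 CPM in injured and from 0 through 1.47 to 2.48 CPM in intact libraries, with no overlap within any age. Limk1 had medians of 39.5 CPM in injured libraries, against 62.6 CPM in intact ones, and Limk2 of 63.2 and 43 CPM.

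The 18 members that were not tested had a mean of at most 0.652 CPM in either condition. They were the receptors Epha1, Epha2, Epha8, Ephb3, Ephb4, Robo3, Robo4, Dcc and Unc5d, the ligands Sema3a, Sema6b, Efna4, Efnb3, Ntn4 and Ntn5, and the 3 antisense transcripts. Of these Ephb4 held 31 counts in injured and 2 in intact libraries, a ratio of 12.9 (exact 95% interval 3.27 to 111), and Efna4 held 20 and 3 (ratio 5.53, interval 1.64 to 29.1). Dcc, the netrin-1 receptor, ran up to 0.707 CPM in injured libraries, against 0.103 CPM in intact ones. Unc50 and Unc5cl, matched by name only, were tested and had values of 0.12 and 0.97 with no call.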

How the data were processed

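RNA of 18 low-input libraries and 69 single cells was read from the deposited table of raw fragment counts per gene. Per the file headers, counts were made with featureCounts 1.5.2 without strand, from GENCODE vM16 on GRCm38 with ERCC sequences; STAR and Trim Galore are named in the submitters' processing notes. Exon lengths, a deposited column of another unit (bp), served only for levels per kb. Of 53370 features, 92 were spike-ins and left out of library sizes. Of the 87 count columns, some match a group by name and not a single sample, and then count as a library of that group. Methylation samples are not analysed here.

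One edgeR 4.0.16 model (R 4.3.3, filterByExpr, TMM, robust quasi-likelihood, 1 mean for each of 6 groups) was fitted to all genes of the 18 libraries. 14212 genes were tested and 12 residual degrees of freedom remained, and p-values were adjusted over all genes. The alternatives used DESeq2 1.42.0, limma 3.58.1, other scalings and filters, a covariate, a replicate block, and each library left out in turn. Single cells were pooled per group as CPM with a pseudocount of 1 in ratios. Exact 95% intervals cover counting error only, since PCR copies are not independent molecules. The script was checked on simulated data.

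Named members are those called in any test, those without overlap within any age, the highest per kb of each class, and the 3 with the smallest p not called. Members, lists and rules were chosen with earlier results of these data known. Whether same-numbered libraries deviate together was checked over 3992 genes. At 1 month the correlations were 0.196, 0.218 and 0.439, so these numbers were taken as pairs in the replicate block, from the data alone. The main fit, which gave the calls at 1 month, held no block and treated the libraries as unpaired. Injured replicate 2 and intact replicate 1 reached 0.188 at 1 month and 0.505 at 8 months. Values of this size thus also arose between unlike numbers, and the pairing is uncertain.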

Additional observations from a re-analysis of the deposited data

How the results depend on the processing

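Results were recomputed under the alternatives named in the processing account. The 11 members called higher in the averaged contrast became 67 with ERCC scaling, 20 without the filter on low counts (18 higher, 2 lower), 0 with the share of CT010467.1 as a covariate and 5 with the replicate block. The 2 called at 1 month became 4 without the filter and 0 with ERCC scaling, the covariate, the replicate block or only the libraries compared. The 3 called at 8 months became 11 with DESeq2, 10 with ERCC scaling, 15 without the filter, 0 with the covariate or only the libraries compared and 1 with the replicate block. The 7 called at 12 months became 14 with DESeq2, 67 with ERCC scaling, 17 without the filter, 0 with the covariate, 2 with the replicate block and 3 with only the libraries compared. The 0 called for the interaction became 2 with DESeq2 or ERCC scaling and 12 without the filter. The 6 called for age in intact neurons became 21 with DESeq2, 10 with limma-voom, 61 with ERCC scaling, 28 without the filter and 0 with only the libraries compared. The 0 called for age in injured neurons became 3 without the filter. With a pseudocount of 5 CPM the 29 members past 2-fold in single cells at 1 month became 18, and the 23 at 1 year became 11. The cause of these shifts was not tested.

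With each library left out in turn, the counts ran from 7 to 14 in the averaged contrast, 0 to 2 at 1 month, 1 to 5 at 8 months, 2 to 10 at 12 months, 0 to 1 for the interaction, 4 to 12 for age in intact neurons and 0 to 0 in injured neurons. Same-numbered libraries correlated at -0.362, -0.336 and 0.174 at 8 months and at -0.039, -0.043 and 0.030 at 12 months, so the numbers were not taken to pair the libraries there, and the blocked counts of those ages share only a number. None of the 11 members called in the averaged contrast changed direction in its 25 alternatives. Depth limits genes near or below 1 CPM, such as Ntn1, Sema4a, Epha3 and Ephb2.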
